A study of Mus musculus with 13 samples.

Results

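SMAD3 binding at mouse gene promoters was listed by the authors as higher after 3 days of reprogramming factor expression at 483 sites, which are described here. They are the promoter sites among the 1176 regions that the authors' table of differential binding lists with a higher mean SMAD3 signal in doxycycline (dox)-treated cells (Dox+) than in cells without dox (Dox-). A site was taken as a promoter site when its center lay within 1000 bp of a transcript start in the GENCODE vM21 annotation of mm10. The sites were therefore chosen by the SMAD3 values themselves, and those values are given below as a description, with no test. Rebuilt from the replicate peak lists, the regions that entered the comparison numbered 13217, of which 8.90% were listed as higher in Dox+. Of the 9354 tested regions at promoters, 5.16% were listed as higher and 4.07%, or 381 sites, as lower. The other 8490 promoter regions were tested but not listed. Listing followed the authors' cutoffs for false discovery rate and fold change, so some listed sites may be false positives. The listed sites were not retested here.

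All cells were mouse embryonic fibroblasts (MEFs) that carried a dox-inducible cassette of c-Myc, Klf4, Oct4 and Sox2 (MKOS) targeted to the Sp3 locus of a line with a Nanog-GFP reporter. All had also been infected with a retrovirus that expresses Smad3CA, a constitutively active SMAD3, so both groups express the same SMAD3 transgene and differ in dox only. OCT4 was immunoprecipitated from Dox+ cells (n = 3), and SMAD3 from Dox+ (n = 3) and Dox- cells (n = 3). Input DNA was sequenced from Dox+ (n = 2) and Dox- cells (n = 2). Dox was given at 1 µg/ml per the labels, although the study's general reprogramming protocol states a lower dose, and the cells were taken on day 3. The MEFs derive from a single engineered line, from embryos of both sexes, and nothing in the sources says whether the replicates were separate cultures. A binding assay holds no expression values, so the fibroblast identity of the cells could not be checked against marker genes.

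SMAD3 is the signal-dependent transcription factor of the TGF-β and activin pathway. It binds short DNA elements, mainly the letters CAGAC or GC-rich sequence, with low affinity on its own, and is brought to most of its sites by other transcription factors and open chromatin. Promoters, in particular those with many CpG dinucleotides, are open in most cell types and collect signal in many ChIP-seq experiments. OCT4 acts in reprogramming together with SOX2 and KLF4, mostly at enhancers away from promoters, while c-MYC favors E-boxes of already open promoters.

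Of the 483 promoter sites, 17 held a peak of the pooled OCT4 libraries (the merged OCT4 list). The sequences at these OCT4 summits are shown first, because the OCT4 libraries were not used to choose the sites. They come from the same Dox+ condition as the SMAD3 libraries that chose the sites, and the peaks of both were called against the same input DNA. The 151 bases of the forward strand of GRCm38.p6 around the summit are printed for the 6 sites with the highest OCT4 fold enrichment whose window holds no annotated untranslated region, apart from Prelid2, whose sequence is not printed here. Capitals mark matches to the octamer ATGCAAAT, the SOX site CATTGTN, the KLF site (GGGCGTGG or GGGTGTGG), the E-box CACGTG and the SOX-OCT composite TTTGTNATG, on either strand. The composite was added to the search after the Rif1 sequence had been seen.
Rif1: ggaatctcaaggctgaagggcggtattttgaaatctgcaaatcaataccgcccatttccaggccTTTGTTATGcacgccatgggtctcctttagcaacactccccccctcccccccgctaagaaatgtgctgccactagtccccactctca
Nav3: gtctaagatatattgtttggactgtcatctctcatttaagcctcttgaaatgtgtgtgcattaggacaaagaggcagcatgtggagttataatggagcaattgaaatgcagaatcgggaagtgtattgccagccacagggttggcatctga
Gm11916: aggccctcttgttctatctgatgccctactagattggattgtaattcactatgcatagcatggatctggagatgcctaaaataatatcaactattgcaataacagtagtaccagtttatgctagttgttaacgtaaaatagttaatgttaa
Arid5b: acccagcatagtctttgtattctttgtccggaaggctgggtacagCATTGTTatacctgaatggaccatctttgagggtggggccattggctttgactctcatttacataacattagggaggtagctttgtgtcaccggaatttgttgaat
Cyp2j6: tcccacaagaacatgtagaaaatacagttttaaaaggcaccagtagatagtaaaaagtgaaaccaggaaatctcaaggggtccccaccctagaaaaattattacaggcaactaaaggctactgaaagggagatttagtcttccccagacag
Gm47602: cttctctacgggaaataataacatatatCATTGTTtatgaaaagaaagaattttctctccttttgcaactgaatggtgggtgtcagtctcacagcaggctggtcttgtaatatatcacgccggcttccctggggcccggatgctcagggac
The windows lie at chr2:52072189-52072339 (Rif1), chr10:109904375-109904525 (Nav3), chr4:29091303-29091453 (Gm11916), chr10:68137493-68137643 (Arid5b), chr4:96553832-96553982 (Cyp2j6) and chr13:63279754-63279904 (Gm47602). The Rif1 summit held the composite, and those of Arid5b and Gm47602 each held a SOX site. The windows of Nav3, Gm11916 and Cyp2j6 held none of the 5 motifs as spelled here.

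The 17 sites contain 18 OCT4 summits, since the Gm35048 site holds 2. The KLF site was present in 6 of the 18 windows (33.3%), at Gm35048, Lemd1, Patz1, Tubb2b, AC151294.2 and Adap1. Among all 2083 OCT4 summits 5.38% held it, and among the 34 summits at promoter regions not listed as changed 8.82%. Of the 6 sites, Patz1, Tubb2b and Adap1 had an OCT4 peak in the merged list only. Gm35048, Lemd1 and AC151294.2 had one in a single replicate list. No site found by at least 2 OCT4 replicate lists held a KLF site in its window. The E-box was found in 2 of the 18 windows, at AC151294.2 and Adap1 (1.10% of all summits). The SOX site was found in 4 of 18, or 22.2%, against 24.3% of all summits. The octamer was found in none of the 18 and in 5.71% of all OCT4 summits, and the composite in 1 of 18 and in 9.03%. These shares are given as a description, without a test.

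SMAD3 signal at the 483 sites was low to moderate in the authors' means, which are log2 normalised read counts per group. The mean in Dox+ ran from 2.04 to 6.96 with a median of 4.08, and that in Dox- from 0.44 to 5.82 with a median of 2.13. The median difference, Dox+ minus Dox-, was 1.76 log2 units (quartiles 1.44 and 2.26). A difference of at least 2 log2 units was found at 177 sites (36.6%). In Dox-, 47 sites (9.73%) stood at 0.44, the lowest value the table contains, so their difference is set in part by that lowest value. Among the 693 distal sites with higher SMAD3 this share was 33.0%, and their median difference was 2.24. The promoter sites thus more often had SMAD3 signal already in the Dox- cells, as the plot of the 2 group means shows. The table holds group means only, so no SD per site can be given.

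**Figure D1:**
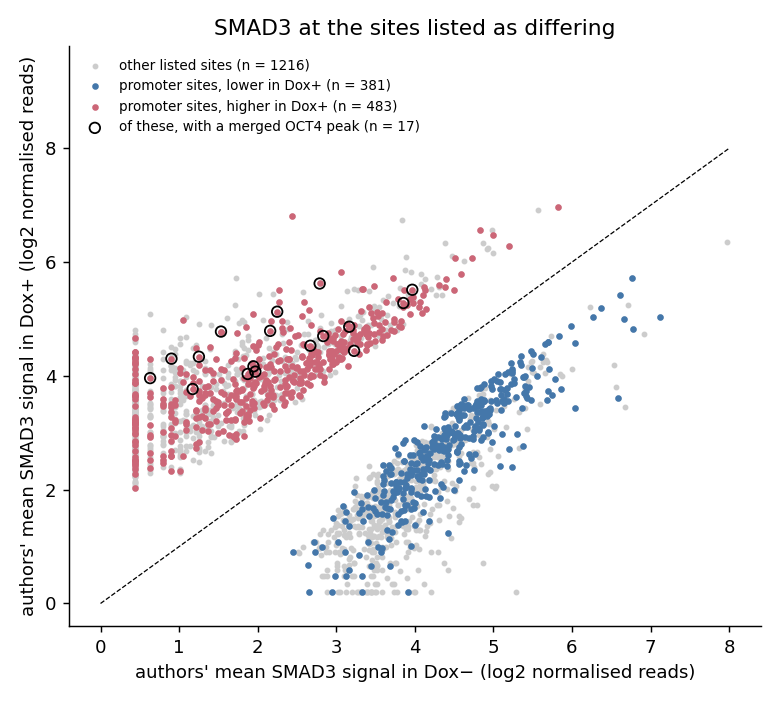
Mean SMAD3 signal in Dox- (x axis) and Dox+ (y axis) of the 2080 listed sites, both in log2 normalised reads as the authors' group means. The 483 promoter sites with higher SMAD3 lie above the dashed line of equal signal, 47 of them in a column at the lowest Dox- value of 0.44, and the 17 with a merged OCT4 peak are ringed.

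The support for these sites came from 2 of the 3 Dox+ libraries. SMAD3 peaks of Dox+ replicate 2 covered 483 of 483 sites (100%) and those of replicate 3 covered 473 (97.9%), whereas those of replicate 1 covered 36 (7.45%). The peak lists of these libraries held 23981, 10374 and 420 peaks, respectively. In Dox-, replicate 2 had a peak at 177 sites (36.6%), replicate 3 at 13 (2.69%) and replicate 1 at 5 (1.04%), from lists of 18588, 4038 and 1656 peaks. Promoter regions not listed were covered to 99.0%, 77.4% and 3.65% by Dox+ replicates 2, 3 and 1. Dox- replicates 2, 3 and 1 covered 92.7%, 30.9% and 16.4% of them. The full coverage by Dox+ replicate 2 was thus not particular to the 483 sites, while their lower Dox- coverage goes with how they were chosen. On average 68.5% ± 52.8 (SD, n = 3) of the 483 sites had a peak in a Dox+ list, compared with 13.5% ± 20.1 (SD, n = 3) for a Dox- list. The spread within Dox+ is thus about as large as the difference of 55.0 percentage points between the groups. When only SMAD3 peaks with a −log10 q-value of at least 2 were kept, the difference was 15.9 percentage points. The files do not give the read number of each library, so list length is the only sign of depth used here.

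Counted by site over the replicate lists, 304 sites were in at least 2 Dox+ lists and in no Dox- list, 173 were in at least 2 Dox+ lists and in a Dox- list, and 6 were in a single list of each group. A region was tested only if at least 2 of the 6 lists held it. Every site in no Dox- list therefore had to be in at least 2 Dox+ lists, so the first count is not separate support. Only 32 sites were present in all 3 Dox+ lists. In the pooled libraries, a merged Dox+ peak covered 456 sites (94.4%) and a merged Dox- peak 95 (19.7%). Where a peak was present its fold enrichment over input was similar in the lists, with medians of 2.66, 2.30 and 2.37 in Dox+ replicates 1, 2 and 3 and of 2.53, 2.29 and 2.35 in Dox- replicates 1, 2 and 3.

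**Figure D2:**
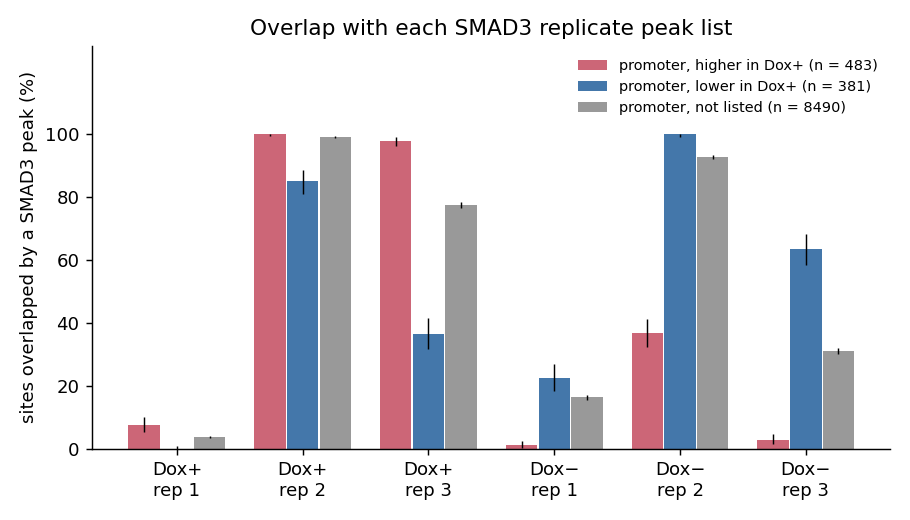
Percentage of promoter sites overlapped by a SMAD3 peak in each of the 6 replicate lists (x axis), for sites higher in Dox+, lower in Dox+ and not listed; error bars are exact 95% binomial intervals. Sites with higher SMAD3 were covered in full or nearly so by Dox+ replicates 2 and 3 (100% and 97.9%) and rarely by replicate 1 (7.45%). Dox+ replicates 2 and 3 also covered 99.0% and 77.4% of the promoter regions not listed.

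The sites lay close to transcript starts. The median distance from center to the nearest start was 134.5 bp (quartiles 45.5 and 313 bp), and 66.0% of the sites were centered within 250 bp of a start, as were 62.7% of the promoter sites with lower SMAD3 and 76.0% of those not listed. The center fell upstream of the start in 46.6% of sites and downstream in 53.4%, and 94.2% of the sites covered a start. By annotation, the center lay in an intron at 144 sites, in an untranslated region at 132, between genes at 117, in a coding exon at 52 and in a noncoding exon at 38. The nearest start belonged to a protein-coding gene at 425 sites (88.0%), to a lincRNA at 19 and to an antisense transcript at 19. At 99 sites (20.5%) the starts of 2 or more genes lay within 1000 bp, which leaves the gene assignment of these sites ambiguous.

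The nearest genes numbered 479. Limk1, Lemd1, Impdh1 and Rtel1 each had 2 separate sites at different starts. At Lemd1, which encodes a LEM domain protein, the site with the OCT4 peak had an SMAD3 mean of 4.30 in Dox+ and 0.90 in Dox-, and the other 2.84 and 1.25. At Impdh1, an enzyme of guanine nucleotide synthesis, the pairs were 4.90 and 3.22 at one start and 3.83 and 1.96 at the other. Rtel1, a DNA helicase of telomere maintenance, had 4.85 and 1.86 at one site and 4.10 and 2.37 at the other. Each of these 4 genes was thus listed at alternative starts.

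The promoter sites were less CpG-rich than the tested promoter regions that were not listed. Within 250 bp of the center the median GC content was 59.9% (quartiles 54.5 and 66.6%), against 62.1% at promoter sites with lower SMAD3 and 63.9% at those not listed. The median ratio of observed to expected CpG was 0.70, against 0.63 and 0.80. A ratio of at least 0.6 together with a GC content of at least 50% was found at 61.1% of sites (95% interval 56.6 to 65.4%), at 51.4% of sites with lower SMAD3 (46.3 to 56.6%) and at 76.8% of those not listed (75.9 to 77.7%). These values were not tested. Site widths were similar in the 3 classes, with medians of 1021, 1193 and 1053 bp.

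Base composition also varied among the sites themselves. Of the 8 sites with the largest SMAD3 difference none reached the CpG ratio of 0.6, and the ratio was 0.53 at Cldn3 and 0.34 at Pde1c, whose promoters are shown as 2 examples. The 250 bases before the RefSeq start of each (GRCm38.p6) are shown 5′ to 3′ on the gene's own strand, with matches to the GC box GGGCGG on either strand in capitals.
Cldn3: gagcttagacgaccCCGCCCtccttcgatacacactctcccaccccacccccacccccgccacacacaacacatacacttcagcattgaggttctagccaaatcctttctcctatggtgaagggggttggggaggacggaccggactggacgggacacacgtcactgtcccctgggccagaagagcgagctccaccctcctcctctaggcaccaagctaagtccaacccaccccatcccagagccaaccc
Pde1c: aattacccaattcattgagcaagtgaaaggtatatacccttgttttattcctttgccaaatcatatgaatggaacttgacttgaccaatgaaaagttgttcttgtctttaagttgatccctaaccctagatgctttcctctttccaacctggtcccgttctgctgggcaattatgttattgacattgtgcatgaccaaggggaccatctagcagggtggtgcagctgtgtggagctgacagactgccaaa
The Cldn3 sequence lies at chr5:134985964-134986213 on the forward strand. It has a GC content of 60.8%, 9 CpG dinucleotides and 1 GC box. That of Pde1c lies at chr6:56362811-56363060 on the reverse strand, with a GC content of 42.8%, 1 CpG and no GC box. It overlaps its site at one edge only, because the RefSeq start is not the GENCODE start nearest to the site. The GC box is found in 35.7% of all 32851 RefSeq promoters of the table (300 bases each).

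OCT4 peaks were more frequent at the promoter sites with higher SMAD3 than at other promoters. Of the 483 sites, 17 (3.52%, 95% interval 2.06 to 5.58%) overlapped a merged OCT4 peak. None of the 381 promoter sites with lower SMAD3 did, which allows a share of up to 0.787% (odds ratio 28.6 with 0.5 added to each count, two-sided Fisher's exact test, adjusted p = 6.21e-05). Of the 8490 promoter regions not listed, 33 did (0.389%, 0.268 to 0.545%, odds ratio 9.47, Fisher's exact test, adjusted p = 5.73e-10). The share was lower than at the 693 distal sites with higher SMAD3, where 133 (19.2%, 16.3 to 22.3%) had an OCT4 peak (odds ratio 0.158, Fisher's exact test, adjusted p = 8.89e-17). P-values were adjusted over the 3 comparisons. The effect of the input that OCT4 and SMAD3 share on these shares was not tested. Sites are not replicates, so these tests and intervals describe the pooled OCT4 libraries and cover counting error only.

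The same order held in each OCT4 library. OCT4 replicates 1 and 2 each had a peak at 8 of the 483 sites (1.66%) and replicate 3 at 2 (0.414%), from lists of 1191, 1131 and 103 peaks. The mean share was 1.24% ± 0.717 (SD, n = 3) at these sites, 0 in all 3 lists at promoter sites with lower SMAD3, 0.161% ± 0.124 (SD, n = 3) at promoter regions not listed and 7.65% ± 5.21 (SD, n = 3) at distal sites with higher SMAD3. All 3 libraries gave the same direction in each comparison, but 3 libraries cannot give an exact sign-flip permutation p below 0.25, and this was the value in all 3 comparisons. With the OCT4 peaks that are present in at least 2 replicate lists, 5 of the 483 sites had a peak against none of the 381 with lower SMAD3 (adjusted p = 0.0705, Fisher's exact test), and 4 of the 8490 not listed (odds ratio 21.7, adjusted p = 6.99e-05).

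Within the 483 sites, OCT4 peaks were found at 5 of 295 CpG-rich sites (1.69%) and at 12 of 188 others (6.38%). Among promoter regions not listed these shares were 0.276% and 0.762%. The odds ratio against regions not listed was 8.40 when stratified over 10 classes of GC content and 19.4 when the same window of 250 bp on each side of the center was used for every site (Fisher's exact test, adjusted p = 2.25e-11), and the Mantel-Haenszel test of the former also passed the threshold. Both alternatives were added after the data had been seen. OCT4 peaks were found at 12 of the 304 sites without a SMAD3 peak in a Dox- replicate list (3.95%) and at 5 of the 179 with one (2.79%).

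**Figure D3:**
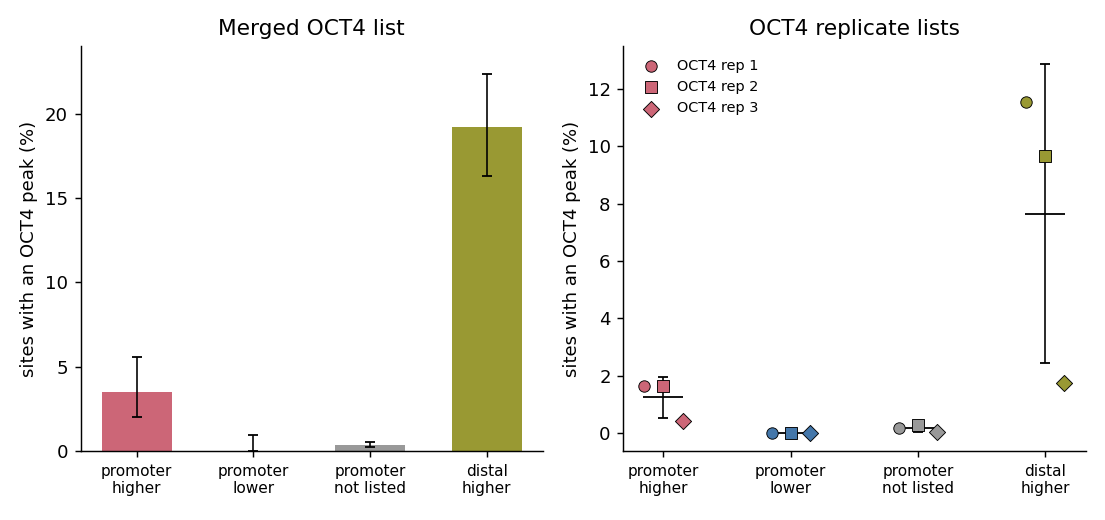
Percentage of sites with an OCT4 peak in 4 classes of SMAD3 site. Left, merged OCT4 list with exact 95% binomial intervals. Right, the 3 OCT4 replicate lists as symbols, with the mean and SD; the shares of the merged list are 3.52%, 0, 0.389% and 19.2% from left to right.

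The highest OCT4 enrichment was at Rif1, which encodes a regulator of DNA replication timing and repair. Its OCT4 summit lay 568 bp upstream of the start, with a fold enrichment of 12.8, 16.9 and 15.6 in OCT4 replicates 1, 2 and 3 and 16.4 in the merged list. The SMAD3 peak at this site had a fold of 1.96 in Dox+ replicate 2 and 2.23 in replicate 3, and 1.84 in Dox- replicate 2. No other SMAD3 replicate list had a peak there, and the pooled Dox+ list had one with a fold of 1.67. The authors' SMAD3 means were 4.08 in Dox+ and 1.97 in Dox-. Nav3, which encodes a microtubule-binding neuron navigator, was the only other site found by all 3 OCT4 lists, with folds of 10.7, 10.9 and 9.79. Its summit lay 427 bp upstream of the start, and SMAD3 peaks were present in Dox+ replicates 2 (3.63) and 3 (2.98) and in no Dox- list.

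OCT4 replicates 1 and 2 both found the sites of Gm11916, Arid5b and Cyp2j6. At Gm11916, an uncharacterised transcript, the folds were 10.3 and 8.62. At Arid5b, a DNA-binding factor of the ARID family, they were 7.38 and 8.45, with the summit 942 bp upstream of the start. At Cyp2j6, a cytochrome P450 that oxidises fatty acids, they were 6.49 and 5.69. Of these, only Arid5b had a SMAD3 peak in a Dox- list (2.47 in replicate 2), and its SMAD3 means were 5.28 in Dox+ and 3.85 in Dox-.

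Replicate 1 alone found Lemd1 (7.14), AC151294.2 (5.74) and Cd109 (4.95), and replicate 2 alone Stmn2 (4.90) and Gm35048 (4.54). Cd109 encodes a membrane-anchored co-receptor that dampens TGF-β signaling. Its SMAD3 means were 4.86 in Dox+ and 3.17 in Dox-, with peaks in Dox+ replicates 2 (2.22) and 3 (2.33) and in no Dox- list. At Stmn2 and Tubb2b, a stathmin and a β-tubulin of neurons, the SMAD3 means were 5.62 and 2.79, and 5.13 and 2.25, respectively. Prelid2, Pnma2, Patz1, Adap1, Dctn5, Gm47602 and Tubb2b had an OCT4 peak only in the merged list. Patz1 encodes a zinc finger transcription factor, Dctn5 a dynactin subunit and Adap1 a GTPase-activating protein of Arf. The merged OCT4 fold at these 7 ran from 4.61 at Tubb2b to 7.77 at Prelid2. They rest on the pooled libraries and have no support from a single replicate list.

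The signal around the OCT4 peaks is a signed score for the pooled libraries. It is averaged here over the central 200 bp of the OCT4 peak of each of the 18 summits. Both Gm35048 summits lie in the same peak and have the same scores, so that peak is counted once for each. For OCT4 it ran from 12.5 to 67.9 with a median of 20.2, close to the median of 21.6 over all 2083 summits. The SMAD3 score was 10.7 to 39.2 in Dox+ (median 20.7) and -5.89 to 12.6 in Dox- (median 1.97), and it was higher in Dox+ at 18 of 18 summits. This direction follows from the choice of the sites. Over all OCT4 summits the median was 7.24 in Dox+ and 0.028 in Dox-. The highest SMAD3 score of the 18 was at Dctn5, with 39.2 in Dox+ and 12.6 in Dox-.

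**Figure D4:**
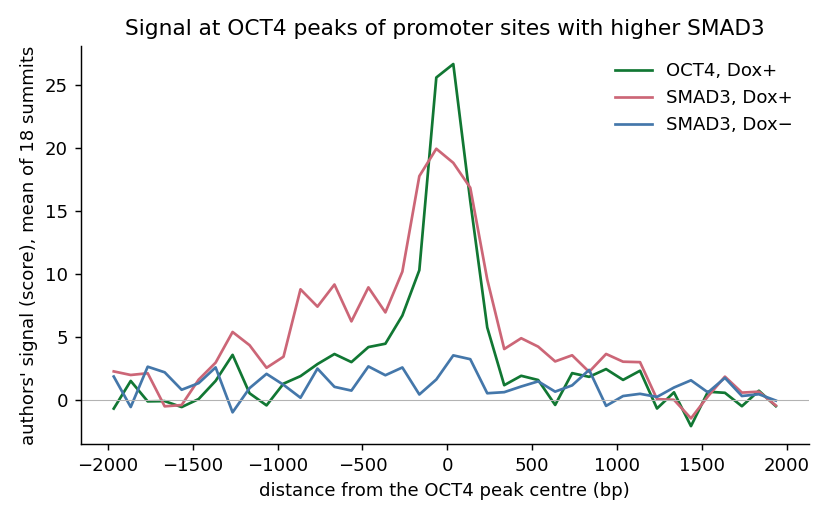
Mean signal score (y axis) against distance from the OCT4 peak center in bp (x axis) at the 18 OCT4 summits, in bins of 10 bp taken every 100 bp, for OCT4 in Dox+ and SMAD3 in Dox+ and Dox-. The Gm35048 peak is counted for both of its summits. OCT4 and Dox+ SMAD3 are both highest within 100 bp of the center, where the Dox- SMAD3 line lies far below them.

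The 8 largest SMAD3 differences were at Gm26953, 1520401A03Rik, Gm11766, Pde1c, AC166172.6, Fetub, Slc1a5 and Cldn3. At Gm26953, a long noncoding transcript, the mean was 6.80 in Dox+ and 2.43 in Dox-, a difference of 4.37 log2 units. The site spans chr5:112212258-112216732 and its center is 966 bp upstream of the start. AC166172.6, an antisense transcript, had means of 4.98 and 1.04, and an OCT4 peak in replicate 2 only (fold 5.42) that was not in the merged list. The other 6 stood at the lowest Dox- value of 0.44. Slc1a5 encodes a glutamine transporter, Pde1c a cyclic nucleotide phosphodiesterase, Fetub a secreted liver protein of the cystatin family, and Cldn3 a tight junction claudin of epithelia. Their Dox+ means were 4.32, 4.41, 4.34 and 4.31.

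In the single lists, SMAD3 peaks at Pde1c had a fold of 2.50 in Dox+ replicate 2 and 3.57 in replicate 3. At Fetub these were 2.37 and 3.14, and at Slc1a5 2.12 and 2.33. Cldn3 was found by Dox+ replicates 1 (2.23) and 2 (2.02) and not by replicate 3. The site of 1520401A03Rik was found by all 3 (3.10, 2.32 and 2.24). None of the 8 sites had a peak in any Dox- list.

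Of the 32 sites in all 3 Dox+ lists, those with the highest Dox+ mean were Gm37634, Tmc6, Fem1c, Arih1, Patz1 and Stmn1. Gm37634 had the highest Dox+ mean of all 483 sites, 6.96, and was also found in all 3 Dox- lists (2.75, 2.33 and 2.43), with a Dox- mean of 5.82. Tmc6, a transmembrane channel-like protein, had means of 6.28 and 5.20 and peaks in Dox- replicates 2 and 3. Fem1c and Arih1, both parts of ubiquitin ligation, had means of 5.78 and 4.59, and 5.71 and 4.40. These sites also had SMAD3 signal in the Dox- cells. Stmn1, the founding stathmin that destabilises microtubules, differed from them with means of 5.51 and 2.27 and folds of 2.77, 2.92 and 2.25 in Dox+ replicates 1, 2 and 3. Its single Dox- peak, in replicate 2, had a fold of 1.78.

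Genes were then grouped by lists of pathways and families, counting the tested promoter regions whose nearest start belonged to a list. The lists name selected genes and not every member of a pathway or family, so a count holds for its list only. No set test was run, and the counts stand beside the backgrounds of 5.16% higher and 4.07% lower. Neither the list of TGF-β and activin pathway genes nor that of fibroblast SMAD3 targets held any of the sites. With 36 and 19 tested regions, a count of 0 cannot be told from the background. Of 36 tested promoter regions of TGF-β and activin pathway genes, none was listed as higher and 3 as lower (Ltbp1, Ltbp3 and Tgfbr3). Cd109, described above as dampening TGF-β signaling, was among the sites with higher SMAD3 but is not in this list. Fstl3, also outside it, was among those with lower SMAD3. Of 19 promoter regions of fibroblast SMAD3 target genes, none was higher and 4 were lower (Col1a1, Mmp2, Myl9 and Tpm1). Il11, which is in neither list, was among the sites with higher SMAD3. Of 12 promoter regions of pluripotency genes, none was higher and 1 was lower (Dppa2). Rif1 and Patz1, described above among the sites with an OCT4 peak, are not in this list.

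The lists of AP-1 and immediate early genes (16 regions) and cell cycle genes (34 regions) had no listed site in either direction. Ccnf, Chek1 and Cenpu, which are not in the cell cycle list, were among the sites with higher SMAD3. The Wnt list had 0 higher and 2 lower of 27 (Dkk3 and Wnt5a), the list of Notch, Hedgehog and BMP genes 0 higher and 1 lower of 15 (Gli2), glycolysis and glucose transport 0 and 2 of 23 (Slc16a3 and Slc2a1), and collagen and matrix genes 0 and 3 of 20 (Agrn, Bgn and Col1a1). With counts this small, a share near the background cannot be told from 0. Outside these lists, Apcdd1, Notch4 and Col2a1 were among the sites with higher SMAD3. Nkd1, Col8a2 and Col9a3, also outside them, were among the promoter sites with lower SMAD3.

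Some lists held a few sites. Of 8 promoter regions of epithelial genes, 1 was higher, that of Cldn3, and none was lower. Of 22 regions of MYC targets and ribosome biogenesis, 3 were higher (13.6%) and none lower. These were Tfrc, the transferrin receptor of iron uptake (means 4.45 in Dox+ and 2.94 in Dox-), Ddx21, an RNA helicase of ribosomal RNA transcription (3.89 and 2.47), and Nolc1, a nucleolar phosphoprotein (3.15 and 1.37). Tfrc and Ddx21 had SMAD3 peaks in Dox- replicate 2 (2.49 and 2.43), and Nolc1 in no Dox- list.

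Of 37 regions of actin cytoskeleton and Hippo pathway genes, 4 were higher and 3 lower. The higher ones were both Limk1 sites, Tead1 and Tead4. Limk1 encodes the kinase that inactivates the actin-severing protein cofilin, and its sites had means of 4.41 and 1.72, and of 2.84 and 0.44. Tead1 and Tead4 are the DNA-binding partners of YAP and TAZ. The Tead1 site had means of 3.47 and 0.44, with folds of 1.93 and 2.16 in Dox+ replicates 2 and 3 and no Dox- peak. The Tead4 site had 4.25 and 2.73 and was found in all 3 Dox+ lists (2.77, 3.01 and 2.19) and in Dox- replicate 2 (2.19).

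Among transcription factors, 3 of 22 regions of the KLF, SP and SOX list were higher and 1 lower (Sox9). Sox6 had means of 4.87 and 3.19, Sp4 of 4.70 and 2.47, and Sp6 of 3.66 and 1.66. None of the 3 had a peak in a Dox- list. Of 26 regions of mesenchymal transcription factors, Nfix was higher (3.63 and 0.63) and Tcf4 and Twist2 were lower. Of 16 regions of Hox genes 1 was higher, Hoxa4 (4.97 and 3.06), with a peak in a single Dox+ list (replicate 2) and in Dox- replicate 2. Of 227 regions of zinc finger genes named Zfp, 6 were higher (2.64%) and 5 lower, the highest Dox+ mean being that of Zfp664 (5.10, against 4.09 in Dox-).

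Of 59 regions of chromatin regulators 1 was higher, Hdac4, a class II histone deacetylase, with means of 2.34 and 0.90. Hdac2 and Dnmt3a were listed as lower. Outside this list, Chd2 and Cbx8 were among the sites with higher SMAD3, and Sin3a and Smarcd2 among those with lower SMAD3. Of 27 histone gene regions 4 were higher (14.8%) and none lower. Hist1h3b had means of 5.22 and 3.84, Hist1h2bh of 4.67 and 3.28, H2afv of 4.49 and 3.14, and Hist1h2bm of 3.75 and 1.74. The first 3 had peaks in Dox- replicate 2 and Hist1h2bm in no Dox- list. Replication-dependent histone genes are clustered and near-identical in sequence, and reads of low mapping quality had been removed before the values were made. Of 66 regions of ribosomal protein genes 3 were higher (4.55%), Rpl26 (4.17 and 3.14), Rpl13 (3.88 and 1.97) and Rplp2 (3.54 and 2.34), and none was lower. Of 41 microRNA regions 1 was higher, Mir1191b, and 6 were lower.

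Motif matches within 100 bp of the center differed from other promoters in 3 of 24 tests (12 motifs, 2 comparisons, two-sided Fisher's exact tests, adjusted over all 24). The GC-rich SMAD site GGCGC was found at 48.7% of the 483 sites and at 59.8% of promoter regions not listed (odds ratio 0.636, exact test, adjusted p = 4.29e-05). The GC box was found at 40.2% and 50.7% (odds ratio 0.653, exact test, adjusted p = 8.03e-05). When stratified over 10 classes of GC content these odds ratios were 0.913 and 0.903, and neither passed the Mantel-Haenszel test. The ETS site CCGGAAGT was found at 4.35% of sites, 4.50% of promoter regions not listed and 0.525% of sites with lower SMAD3. Only the difference from the last passed (odds ratio 7.06, exact test, adjusted p = 0.00307), and it kept its side of the threshold after GC stratification.

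The SMAD site CAGAC was present at 37.9% of sites, 36.5% of promoter sites with lower SMAD3 and 33.2% of those not listed, and neither difference passed (exact tests, adjusted p = 0.836 and 0.176). The reprogramming factors' motifs were at low shares in this window. The SOX site was at 6.00% against 4.72% and 3.79%, the KLF site at 7.25% against 4.46% and 6.38%, the E-box at 6.21% against 4.46% and 5.08%, and the octamer at 0.207% against 0.525% and 0.506%. None of these passed in this window. Within 250 bp of the center, the KLF site (odds ratio 1.89, exact test, adjusted p = 0.00752) and the E-box (1.86, exact test, adjusted p = 0.0277) passed against promoter sites with lower SMAD3. Against promoter regions not listed neither passed in that window (odds ratios 1.25 and 1.29, exact tests, adjusted p = 0.149 for both). The AP-1 site TGANTCA was at 4.14%, against 4.20% and 2.67%. The CCAAT box CCAATNNG, the CRE TGACGTCA and the TATA box TATAAA were at 8.70%, 2.07% and 3.11%, and none passed in this window.

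In the window of 250 bp before to 50 bp after the nearest start, 9 of 24 tests passed. In it the E-box was found at 62 of the 483 sites and at 15 of the 381 with lower SMAD3 (odds ratio 3.51, exact test, adjusted p = 2.61e-05), while the difference from promoter regions not listed did not pass (odds ratio 1.29, adjusted p = 0.158). The SOX site (odds ratio 2.28, exact test, adjusted p = 0.0194), the CCAAT box (1.67, exact test, adjusted p = 0.0194) and the GC box (0.704, exact test, adjusted p = 0.0427) also passed against sites with lower SMAD3, as did the AP-1 site (2.02, exact test, adjusted p = 0.00084) and the CCAAT box (1.36, exact test, adjusted p = 0.026) against regions not listed. The other 3 were those that passed around the center. Neither this window nor the motif window of 250 bp around the center was stratified by GC content, which differed between the classes. In the window of 100 bp, 1 of 24 tests passed after stratification, that of the ETS site against sites with lower SMAD3. A match is a description of the sequence, and KLF sites and GC boxes can overlap in the same letters.

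**Figure D5:**
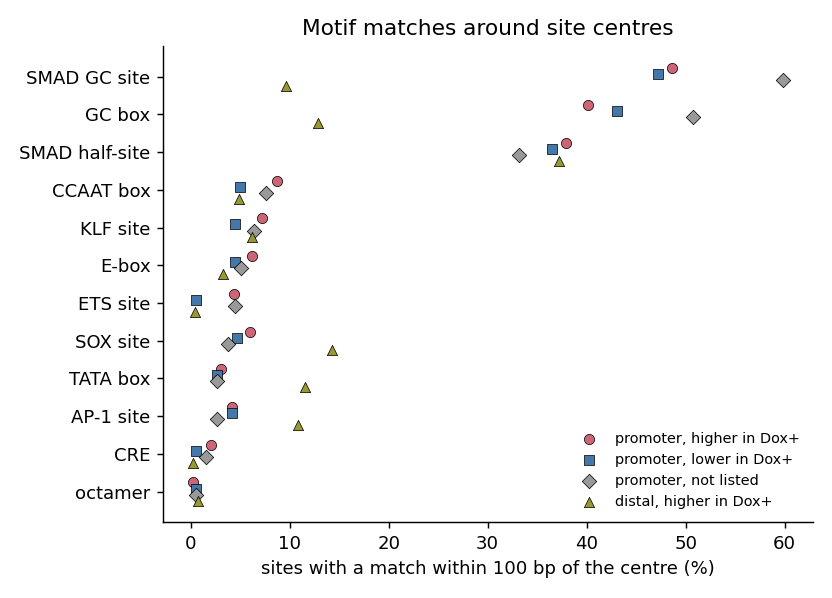
Percentage of sites with a match to each of 12 motifs within 100 bp of the center (x axis), for 3 classes of promoter site and for distal sites with higher SMAD3. Promoter sites with higher SMAD3 and distal sites stood at 40.2% and 12.8% for the GC box and at 6.00% and 14.3% for the SOX site, but close together for the SMAD site CAGAC (37.9% and 37.2%) and the KLF site (7.25% and 6.20%).

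The authors' second table compares OCT4 with SMAD3 in the Dox+ cells and shares the Dox+ SMAD3 libraries with the choice of the sites, so its counts are given without a test. Of the 483 sites, 45 (9.32%) overlapped a site listed with OCT4 above SMAD3 and 22 (4.55%) a site listed with SMAD3 above OCT4. Over all 9903 regions rebuilt for that table these shares were 13.6% and 6.64%. Among promoter regions not listed for SMAD3 they were 1.32% and 6.54%, and among distal sites with higher SMAD3 34.2% and 2.02%. Of the 17 sites with a merged OCT4 peak, 13 were listed with OCT4 above SMAD3, the largest difference being 3.37 log2 units at Rif1 (means 6.59 for OCT4 and 3.23 for SMAD3). Most of the 45 sites listed with OCT4 above SMAD3 had no merged OCT4 peak, so this listing does not stand for an OCT4 peak. The Tead1 site was among them, with means of 4.82 for OCT4 and 2.62 for SMAD3 and no OCT4 peak in any list.

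At the limits of the rule, the sites farthest from a start were those of Ankrd35 (987 bp), Gm26953 (966 bp) and Otud7a (944 bp), with SMAD3 means of 3.16 and 0.44, 6.80 and 2.43, and 4.47 and 3.06. Just beyond 1000 bp lay sites at Kdm6bos (3.29 and 0.44), Inpp5k (2.97 and 0.95) and Klf3 (6.09 and 3.89), which are not counted among the 483. The smallest differences inside were 1.01 at Nsmaf, 1.01 at Zfp664 and 1.02 at Rpl26, next to the lower limit of the authors' list. Sites just inside and just outside the distance limit had SMAD3 means in the same range.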

How the data were processed

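ChIP-seq of OCT4 (Dox+, n = 3) and SMAD3 (Dox+ and Dox-, n = 3 each) with inputs was analysed from the files the authors deposited. The authors trimmed reads (Trimmomatic 0.36), aligned them to mm10 with Bowtie 2, removed duplicates (Picard 2.3.0), reads of low mapping quality (SAMtools 1.3) and blacklisted regions (bedtools 2.25.0), and called peaks with MACS2 2.1.0 on single and pooled replicates against pooled inputs. Each entry of the deposited peak lists gives a fold enrichment over input (a linear ratio) with its −log10 q-value. Signal around OCT4 peaks (deepTools 2.2.3) was deposited as a score of pooled ChIP coverage that can be below 0 and keeps the authors' scaling. The authors' DiffBind 1.16.3 tables hold log2 mean read concentrations per group, which were used, and a fold, p-value and FDR per listed site, which were not used. They hold no value per replicate.

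Regions tested were rebuilt by joining overlapping peaks of the 6 SMAD3 lists and keeping those in at least 2. All 2080 listed sites were among them with the same coordinates. Overlap meant 1 shared bp. Starts came from GENCODE vM21, sequence from GRCm38.p6 (RefSeq), and at 348 of the 483 sites the nearest gene had an entry in the RefSeq promoter table by symbol. Shares have exact (Clopper-Pearson) 95% intervals, and a count of 0 is given as the share 3 counts would make. Tests were two-sided Fisher's exact tests over sites with Benjamini-Hochberg adjustment, and an exact sign-flip permutation test over the 3 OCT4 lists. Named sites were those with a merged OCT4 peak, the 8 largest differences, the 6 highest Dox+ means among sites in all 3 Dox+ lists, up to 5 per gene list, and those at the limits of the rule. The sites, gene lists and motifs were chosen with earlier results of these data known. Sequence on chromosome 18, which holds Prelid2, is not printed here. Python 3.11.15, numpy 2.4.6, scipy 1.17.1, pandas 2.3.3, pysam 0.24.0 and matplotlib 3.10.9 were used, and the overlap, test and motif steps were tested on simulated data. Alternatives are described in the closing section. Per-library read numbers were not given in the sources used here.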

Additional observations from a re-analysis of the deposited data

How the results depend on the processing

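The number of sites was 420 to 564 under other distance limits, with protein-coding starts only or with any base of the site counted. The odds ratio of an OCT4 peak kept its direction and its side of the threshold under every alternative run, except against promoter sites with lower SMAD3 with OCT4 peaks in at least 2 replicate lists (8.77, adjusted p = 0.0705, Fisher's exact test). Leaving out an OCT4 replicate, the difference in share was 1.04 to 1.66, 0.876 to 1.43 and -8.95 to -4.66 percentage points against promoter sites with lower SMAD3, promoter regions not listed and distal sites. With the 103 strongest peaks of each OCT4 list it was 0.483, 0.467 and -1.01. Leaving out a SMAD3 replicate, the support difference was 39.2 to 85.5 percentage points, highest without Dox+ replicate 1. Motif tests past the threshold numbered 3, but 5 within 250 bp, 1 with GC stratification and 9 in the promoter window.

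Single motif odds ratios that changed direction did not pass in either setting. Within 250 bp, against sites with lower SMAD3, these were AP-1 (1.05), SMAD CAGAC (0.929) and TATA box (0.995), and against regions not listed the CCAAT box (0.982). With GC stratification they were the GC box against lower sites (1.13) and the TATA box against regions not listed (0.866). In the promoter window they were the octamer against both (1.37 and 1.52), AP-1 (1.02) and SMAD GGCGC (0.939) against lower sites. With the replicate number as a block, an alternative added after the data had been seen, the difference in SMAD3 support was 6.42, 63.4 and 95.2 percentage points in replicates 1, 2 and 3 (mean 55.0 ± 45.0, SD, n = 3), with no test because the SMAD3 libraries chose the sites. Over the 13217 regions, deviations of same-numbered SMAD3 lists from their group means correlated at -0.179, 0.26 and 0.13. Those of differently numbered lists correlated at -0.281 to 0.174. These ranges overlap, so whether same-numbered lists were paired cannot be told from them. The short lists of Dox+ replicate 1 of SMAD3 (420 peaks) and replicate 3 of OCT4 (103 peaks) limit these results, and whether depth or enrichment made them short was not tested.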
